A study of Mus musculus with 4 samples.

Results

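The genes described here encode the secreted and membrane-bound matrix metalloproteinases (Mmp), the ADAMTS proteases (Adamts), the ADAMTS-like glycoproteins (Adamtsl) and their tissue inhibitors (Timp1 to Timp4). Membership was set by gene symbol alone. The rule took 51 of the 25906 genes in the count matrices: 23 Mmp, 19 Adamts, 5 Adamtsl and 4 Timp genes. Of these, 45 had at least 20 unique molecular identifiers (UMIs) over all deposited barcodes of the 4 libraries and are reported. The remaining 6 were Mmp20 with 19 UMIs, Mmp1b with 9, Mmp10 with 8, Mmp7 and Mmp8 with 5 each, and Mmp1a with 0. The reported gene with the fewest UMIs was Adamts13 with 46, so no gene lay just above the limit.

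The nuclei came from the ventricles of wild-type C57BL/6J mice of both sexes that were 8 weeks old when the study began. The running infarct library pooled 4 hearts of mice that had run voluntarily on wheels for 16 weeks and were then given a myocardial infarction, with tissue taken 2 weeks after surgery. The sedentary infarct library pooled 4 hearts of mice without wheels, taken at the same interval after infarction. The running library pooled 2 uninjured hearts after 16 weeks of running, and the sedentary library pooled 2 uninjured hearts of mice without wheels. Infarcted hearts were collected 2 weeks later than uninjured hearts, infarct region and remote muscle were not separated, and each group has 1 library (n = 1). No difference could be tested against the spread between animals, and every comparison is a description of these libraries.

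Matrix metalloproteinases and ADAMTS proteases are zinc enzymes made as inactive precursors, and they cut collagens, proteoglycans, elastic fibres and matrix-bound growth factor complexes. ADAMTS-like proteins share the non-catalytic domains of ADAMTS proteases, lack the protease domain and bind matrix microfibrils. TIMPs block these enzymes by direct binding, and TIMP3 differs from the others in being held in the matrix and in inhibiting ADAMTS proteases as well. In the heart these genes are known for their part in scar formation after infarction, valve development and vessel growth. The counts here are of RNA in nuclei and carry no information on enzyme activation.

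The running infarct, sedentary infarct, running and sedentary libraries held 4922, 3243, 6253 and 5388 barcodes, with 26170995 to 37533722 UMIs each. Filtering and removal of doublets left 4711, 3124, 5832 and 5114 nuclei, and 17 to 31 barcodes per library also occurred in another library. Clusters that could not be named held 22.4 to 28.5% of nuclei and 47.6% of the UMIs of these genes in the nuclei kept. Fibroblast-like nuclei numbered 901, 958, 1530 and 1430 in the running infarct, sedentary infarct, running and sedentary libraries, and all 12 fibroblast markers had UMIs in them in each library. The libraries stood apart in the mitochondrial share of UMIs in fibroblast-like nuclei, which was 3.39, 3.34, 10.0 and 5.79% in that order of libraries. In the same order, 44.0, 45.4, 91.7 and 65.5% of all barcodes had over 5% mitochondrial UMIs. Ratios to the running library with at most 5% therefore rest on a small part of its nuclei, and on very few in small classes. They also differed in the share of fibroblast-like nuclei that were positive for Y-linked genes, at 21.6, 17.8, 36.1 and 31.2% in the same order. For the main genes, log2 ratios recomputed in these divisions of the nuclei are given where a call was lost or the ratio shifted by over 1.5-fold, and the closing section gives the number of all shifts.

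Levels are UMIs per 1000000 UMIs of a cell class, leaving out mitochondrially encoded genes (CPM). Each ratio is followed in brackets by its 95% interval, which reflects counting error alone and treats UMIs as independent, although UMIs of the same nucleus are not. A gene was measured in a comparison when it had at least 100 UMIs over both libraries, and it was called higher or lower by size when the ratio reached 1.5-fold. Genes differ in length, so levels are compared between libraries and classes and not between genes.

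Fibroblast-like nuclei were the leading class for 17 of the 38 genes with at least 100 UMIs in named classes. Among these were the procollagen N-proteinase Adamts2, the proteoglycan-cleaving Adamts5, the microfibril-associated Adamts6 and Adamts10, the gelatinase Mmp2, the membrane-type Mmp16, and Adamtsl2, Adamtsl3 and Adamtsl4. Adamtsl3 averaged 850 CPM over the 4 libraries in fibroblast-like nuclei and 215 CPM in T cell-like nuclei, the next class. The T cell-like level was 179, 89.1, 114 and 479 CPM in the running infarct, sedentary infarct, running and sedentary libraries, the last from 24 UMIs in a class of 7 nuclei. For 8 of the 17 genes fibroblast-like nuclei led in all 4 libraries. The leading genes of the other classes follow, each gene having 1 leading class by definition.

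Vascular endothelial-like nuclei led for 4 genes, namely Adamts1, Adamts9, Mmp15 and Timp4. Adamts9 averaged 573 CPM there and 231 CPM in pericyte-like nuclei, and Timp4 averaged 83.1 CPM there and 21.4 CPM in macrophage-like nuclei. Lymphatic endothelial-like nuclei led for Adamtsl1, Mmp14 and Timp3, and endocardial-like nuclei for Adamts8 and Mmp28. Adamts1, Mmp15, Adamts8 and Mmp28 each had the same leading class in only 2 of the 4 libraries. Cardiomyocyte-like nuclei led for Adamts3, Adamts7 and Adamtsl5, in all 4 libraries for each. Adamts7, which cleaves cartilage oligomeric matrix protein, averaged 41.6 CPM in cardiomyocyte-like nuclei and 8.65 CPM in vascular endothelial-like nuclei. Macrophage-like nuclei led for Mmp12, the macrophage metalloelastase, and mesothelial-like nuclei for Timp2. Smooth muscle-like nuclei led for 5 genes and pericyte-like nuclei for 2, but the smooth muscle-like class held only 23 to 47 nuclei per library.

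**Figure D1:**
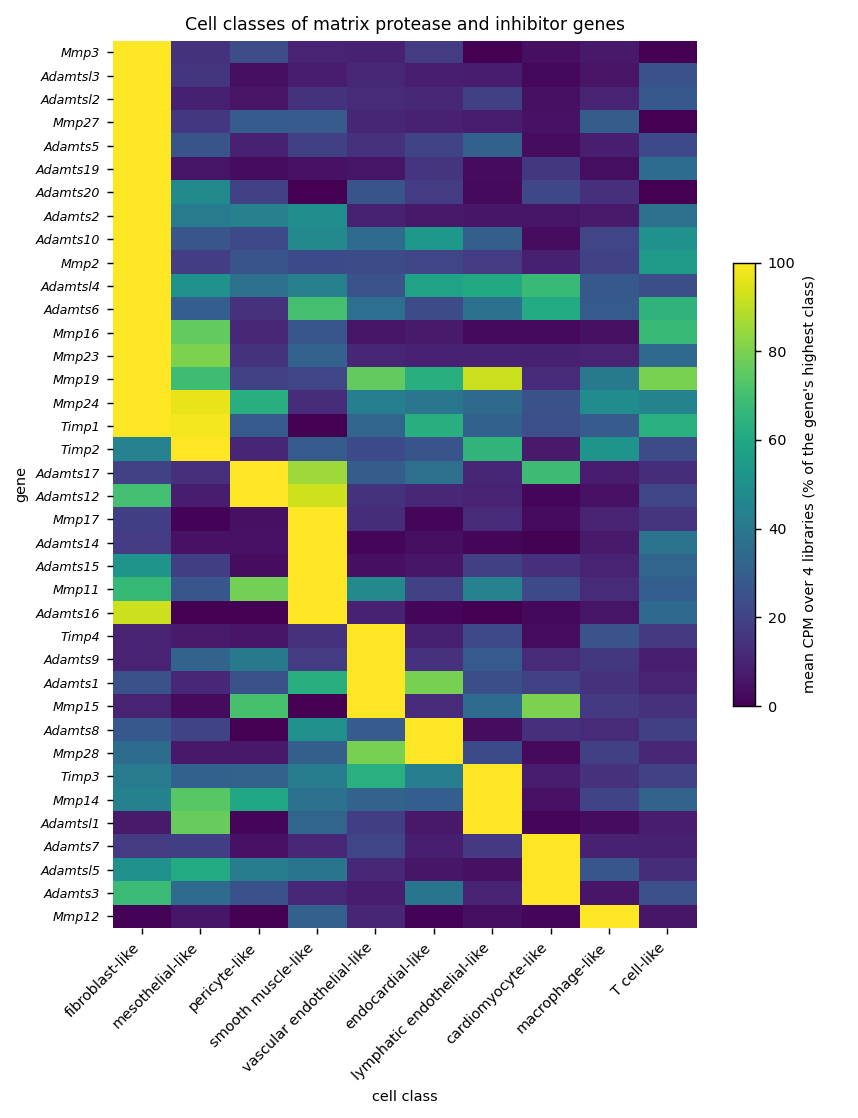
Mean CPM over the 4 libraries for the 38 genes with at least 100 UMIs in named classes (rows) in 10 cell classes (columns), as a percent of each gene's highest class, so that rows cannot be compared in level. Fibroblast-like nuclei hold the highest level of 17 genes, and vascular endothelial-like nuclei that of 4.

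Several enzymes known from inflamed tissue had few UMIs. Mmp9, the gelatinase of neutrophils and macrophages, had 8, 16, 23 and 17 UMIs over all barcodes of the running infarct, sedentary infarct, running and sedentary libraries. The neutrophil collagenase Mmp8 had 1, 2, 2 and 0 UMIs, and the collagenase Mmp13 had 21, 10, 13 and 34. Lower transcription of these genes would not have been detectable at this depth. In the GENCODE vM21 annotation (GRCm38), 10 Mmp genes lie on chromosome 9, and 4 of them, Mmp3, Mmp12, Mmp13 and Mmp27, had at least 20 UMIs.

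The first question of the design is how the infarcted heart differs from the uninjured heart. In fibroblast-like nuclei of the sedentary infarct library against the sedentary library, 5 of 27 measured genes were at least 1.5-fold higher (Adamts3, Adamts6, Adamts17, Adamtsl2 and Mmp23), where 6.16% of all 10061 genes measured were. In the same comparison 2 genes, Adamts1 and Mmp24, were at least 1.5-fold lower, against 7.67% of all genes. The median log2 ratio was 0.09 over the 27 genes and -0.03 over all genes.

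From the running infarct library against the running library, 9 of 30 measured genes were at least 1.5-fold higher, against 6.99% of 10159 genes. They were Adamts2, Adamts3, Adamts6, Adamts9, Adamts15, Adamts17, Adamtsl2, Mmp3 and Timp1. Lower by the same size were 3 genes, Adamts1, Adamts5 and Adamts20, against 9.02% of all genes. The median log2 ratio was 0.14 over the 30 genes and -0.06 over all genes. These infarct comparisons, called the running pair and the sedentary pair from here on, share no library. Adamts3, Adamts6, Adamts17 and Adamtsl2 were called higher in both, which is 80% of the first list and 44.4% of the second, and Adamts1 was called lower in both. The overlap of calls over all genes was not computed, so whether these shares are particular to the families is not known.

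**Figure D2:**
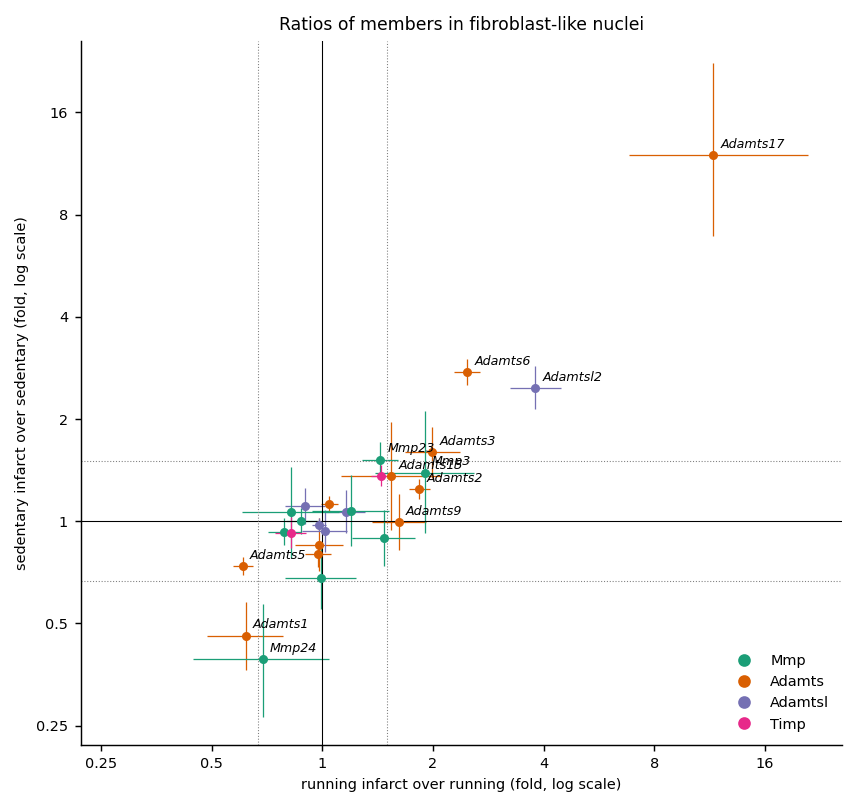
Fold ratio in fibroblast-like nuclei of running infarct over running (x axis, log scale) and sedentary infarct over sedentary (y axis, log scale) for the 27 genes measured in both comparisons, coloured by family, with 95% counting intervals and dotted lines at 1.5-fold. Adamts17 lies farthest out at 11.6-fold and 12.0-fold, while Mmp2 lies near the crossing at 1.

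Adamts6 acts on fibrillin microfibrils and their latent growth factor complexes. It had 413 and 364 CPM in the running infarct and sedentary infarct libraries, against 167 and 132 CPM in the running and sedentary libraries. Both infarct libraries were above both uninjured libraries, by 2.48-fold [2.28 to 2.68] over running and 2.75-fold [2.51 to 3.01] over sedentary. The share of nuclei with a UMI was likewise higher, at 50.4 and 52.1% in the running infarct and sedentary infarct libraries and 31.6 and 25% in the running and sedentary libraries, at median depths of 3903, 4345, 4027.5 and 3478.5 UMIs. Free RNA can give UMIs of a gene in other classes. Adamts6 in vascular endothelial-like nuclei was at 29.3, 36.8, 35.6 and 59.4% of its fibroblast-like level, while the summed fibroblast markers were at 16.2, 18.0, 12.6 and 13.7%. Whether vascular endothelial-like nuclei transcribe Adamts6 themselves was not tested, so these values do not give its free RNA level.

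Adamts17, linked in human to short stature with lens defects, had 31.3 and 32.8 CPM in the running infarct and sedentary infarct libraries, against 2.70 and 2.75 CPM in the running and sedentary libraries. The infarct libraries had 119 and 147 UMIs and the uninjured libraries 16 and 14. The ratio was 11.6-fold [6.84 to 20.9] over running and 12.0-fold [6.90 to 22.4] over sedentary. Few nuclei carried it, namely 71 of 901 and 62 of 958 in the running infarct and sedentary infarct libraries, and a single nucleus held 28 of the 147 UMIs of the sedentary infarct library. Without the nucleus with most UMIs in each library the log2 ratio was 3.72 in the running pair and 3.62 in the sedentary pair. Cardiomyocyte-like nuclei did not show this difference for Adamts17, with 48.4 and 60.8 CPM in the running infarct and sedentary infarct libraries and 70.9 and 60.6 CPM in the running and sedentary libraries.

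Adamts16 was carried by few nuclei. It had 68, 51, 2 and 0 UMIs in fibroblast-like nuclei of the running infarct, sedentary infarct, running and sedentary libraries. Against the sedentary library, with the floor set at 3 UMIs for the library, the sedentary infarct library was at least 19.4-fold higher. The running infarct library was 52.9-fold [14.1 to 446] higher than the running library. These UMIs came from 23 nuclei in the running infarct library and 15 in the sedentary infarct library, where a single nucleus held 23 of them. Adamts16 had under 100 UMIs in either infarct comparison and was picked out after its values had been seen.

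The procollagen N-proteinases remove the amino-terminal propeptide from fibrillar procollagens. Adamts2 had 510 and 410 CPM in the running infarct and sedentary infarct libraries, against 278 and 330 CPM in the running and sedentary libraries. That is 1.84-fold [1.72 to 1.96] for running infarct over running and 1.24-fold [1.16 to 1.33] for sedentary infarct over sedentary, so only the running pair passed the size limit, and without activated nuclei its log2 ratio was 0.55. Adamts3 had 83.0 and 71.0 CPM in the running infarct and sedentary infarct libraries, against 41.7 and 44.5 CPM in the running and sedentary libraries. Its ratio was 1.99-fold [1.68 to 2.36] in the running pair and 1.59-fold [1.34 to 1.90] in the sedentary pair, where the interval reached below 1.5-fold.

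Of the proteoglycan-cleaving ADAMTS genes, Adamts5 and Adamts1 had lower levels in both infarct libraries than in both uninjured libraries. Adamts5, the aggrecanase, had 371 and 395 CPM in the running infarct and sedentary infarct libraries, against 611 and 535 CPM in the running and sedentary libraries. It was 1.65-fold [1.55 to 1.75] lower in running infarct than in running and 1.36-fold [1.28 to 1.44] lower in sedentary infarct than in sedentary. Adamts1, which also cleaves aggrecan and versican, had 26.3 and 24.1 CPM in the infarct libraries of running and sedentary mice, against 42.5 and 52.4 CPM in the running and sedentary libraries. It was 1.62-fold [1.28 to 2.06] lower in the running pair and 2.17-fold [1.73 to 2.74] lower in the sedentary pair.

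Adamts9, a versican-cleaving protease, had 74.6 and 47.3 CPM in the running infarct and sedentary infarct libraries, against 46.2 and 47.6 CPM in the running and sedentary libraries. The running infarct library stood above the other 3, at 1.61-fold [1.36 to 1.91] over running, and without activated nuclei that log2 ratio was 0.00. Adamts12 had 245 and 193 CPM in the running infarct and sedentary infarct libraries, against 251 and 242 CPM in the running and sedentary libraries, and passed no limit. Adamts4, another aggrecanase, had 11 and 3 UMIs in the running infarct and sedentary infarct libraries, against 1 and 4 UMIs in the running and sedentary libraries, too few for a ratio between the sedentary pair.

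Adamtsl2 binds fibrillin and the latent complex of TGF-beta, and in human its loss causes a short-stature syndrome with thickened valves. It had 145 and 130 CPM in the running infarct and sedentary infarct libraries, against 38.3 and 52.5 CPM in the running and sedentary libraries. It was 3.79-fold [3.24 to 4.45] higher in running infarct than in running and 2.47-fold [2.14 to 2.87] higher in sedentary infarct than in sedentary. The share of nuclei with a UMI was 28.9 and 27.7% in the running infarct and sedentary infarct libraries, and 9.09 and 12.4% in the running and sedentary libraries. The log2 ratio of the running pair was 1.23 with at most 5% mitochondrial UMIs, 2.68 in nuclei positive for Y-linked genes and 1.32 in negative nuclei, where all nuclei gave 1.92. That of the sedentary pair was 0.65 in nuclei positive for Y-linked genes and 1.49 in negative nuclei. Adamtsl3, by contrast, was level over the whole class at 868, 812, 888 and 832 CPM in the running infarct, sedentary infarct, running and sedentary libraries.

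**Figure D3:**
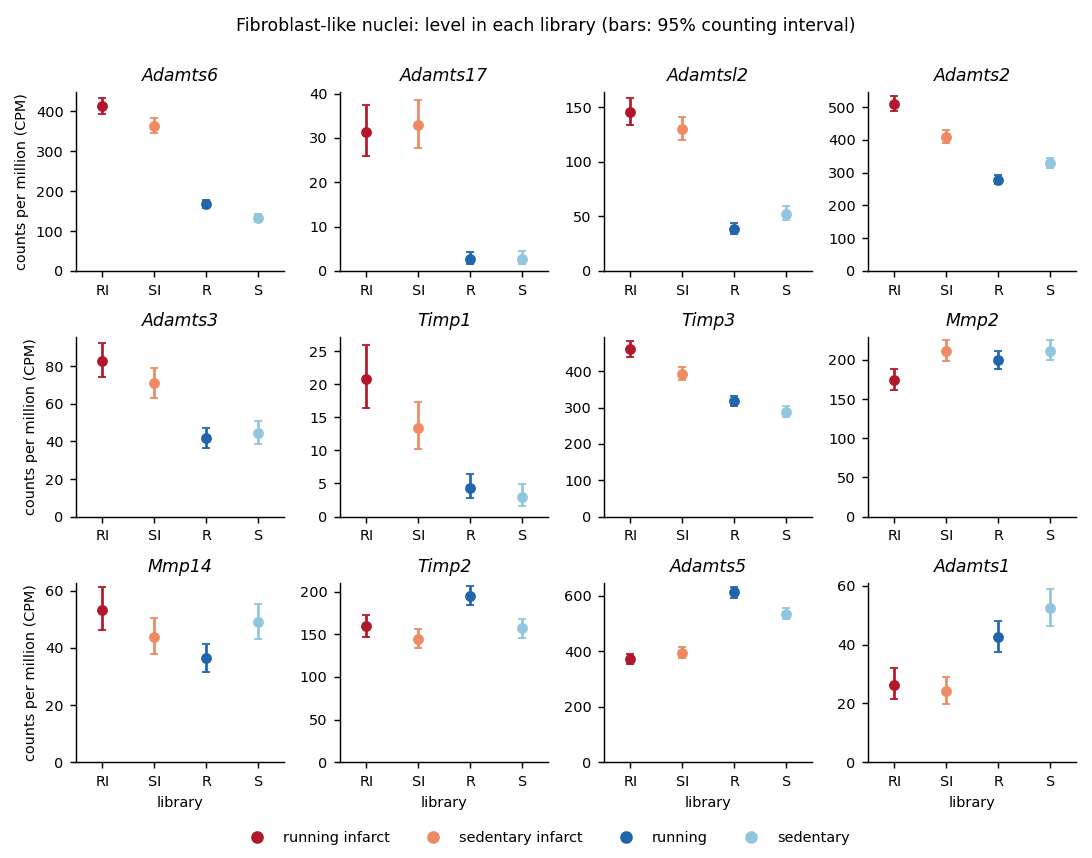
CPM (y axes, from 0) of 12 genes in fibroblast-like nuclei of the running infarct (RI), sedentary infarct (SI), running (R) and sedentary (S) libraries, 1 point per library with its 95% counting interval. Adamts6, Adamts17, Adamtsl2, Adamts3 and Timp1 are higher in both infarct libraries, Adamts5 and Adamts1 are lower in both, and Mmp2 stays between 175 and 212 CPM.

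Among the metalloproteinases, Mmp23 (higher) and Mmp24 (lower) passed the size limit in the sedentary pair, and Mmp3 (higher) passed it in the running pair. Mmp2, the type IV collagen-degrading gelatinase, had 175 and 212 CPM in the running infarct and sedentary infarct libraries, against 199 and 212 CPM in the running and sedentary libraries. Mmp14 is its membrane-bound activator and had 53.3 and 43.8 CPM in the running infarct and sedentary infarct libraries, against 36.3 and 49.0 CPM in the running and sedentary libraries. Its ratio was 1.47-fold [1.21 to 1.79] in the running pair and 0.893-fold [0.737 to 1.08] in the sedentary pair, where the interval lay on both sides of even. Mmp23 had 156 and 137 CPM in the running infarct and sedentary infarct libraries, against 108 and 90.0 CPM in the running and sedentary libraries, at 1.44-fold [1.28 to 1.61] in the running pair and 1.52-fold [1.34 to 1.72] in the sedentary pair. The membrane-type Mmp24 had 8.93 and 8.71 CPM in the running infarct and sedentary infarct libraries, against 13 and 22.2 CPM in the running and sedentary libraries, and was 2.54-fold [1.75 to 3.76] lower in sedentary infarct than in sedentary.

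Mmp3, the stromelysin that also activates other proenzymes, had 25 and 12.3 CPM in the running infarct and sedentary infarct libraries, against 13.2 and 8.82 CPM in the running and sedentary libraries. The running infarct library was highest, at 1.90-fold [1.39 to 2.59] over running. Its share of nuclei with a UMI did not follow: 1.78 and 2.40% in the running infarct and sedentary infarct libraries, and 2.16 and 1.61% in the running and sedentary libraries. A single nucleus held 35 of the 95 UMIs of the running infarct library. Without the nucleus with most UMIs in each library the log2 ratio of running infarct over running was 0.57, below the size limit.

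The calls of some of these genes in fibroblast-like nuclei were lost in a division of the nuclei. In the running pair the log2 ratio of Adamts5 was -0.52 with at most 5% mitochondrial UMIs and -0.51 in Y-positive nuclei, where all nuclei gave -0.72. That of Adamts1 was -0.55 with at most 5% mitochondrial UMIs and -0.49 in Y-negative nuclei, where all nuclei gave -0.69. That of Adamts9 was 0.31 with at most 5% mitochondrial UMIs and 0.48 in Y-positive nuclei, where all nuclei gave 0.69. In the sedentary pair Adamts17 and Mmp24 lay farther out in Y-positive nuclei, at 4.73 and -1.95, where all nuclei gave 3.58 and -1.35.

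TIMPs differed from each other. Timp1, the inhibitor best known for its induction by injury, had 20.8 and 13.4 CPM in the running infarct and sedentary infarct libraries, against 4.39 and 2.94 CPM in the running and sedentary libraries. It had 79 and 60 UMIs in the infarct libraries of running and sedentary mice, and 26 and 15 UMIs in the running and sedentary libraries. The ratio was 4.73-fold [3.0 to 7.68] over running. The 4.55-fold [2.55 to 8.64] over sedentary rests on 75 UMIs and was not counted as measured. Timp3 had 461 and 393 CPM in the running infarct and sedentary infarct libraries, against 319 and 289 CPM in the running and sedentary libraries, at 1.45-fold [1.36 to 1.54] in the running pair and 1.36-fold [1.27 to 1.46] in the sedentary pair. Its log2 ratio of running over sedentary was 0.14, and 0.75 with at most 5% mitochondrial UMIs. Timp2, which with Mmp14 takes part in the activation of Mmp2, had 160 and 145 CPM in the running infarct and sedentary infarct libraries, against 195 and 157 CPM in the running and sedentary libraries. Timp4 had 21 and 38 UMIs in the infarct libraries of running and sedentary mice, against 60 and 47 UMIs in the running and sedentary libraries.

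Promoters of 4 genes that differed in fibroblast-like nuclei are printed so that their sequences can be set beside these values: Timp1 and Adamtsl2 were higher in infarct libraries, Mmp3 rested on few nuclei, and Adamts1 was lower. The sequences are from RefSeq (GRCm38.p6) and run 5′ to 3′ on the gene's strand from 250 bases before to 50 bases after the start site. Capitals mark matches, on either strand, to the letters of 4 motifs, and no match overlaps another. The letters searched were TGANTCA for AP-1 factors. For TEAD factors they were GGAATG. For RUNX factors they were TGTGGT. For the TATA box they were TATAAA. The Timp1 promoter lies at chrX:20869916-20870215 (+), that of Adamtsl2 at chr2:27079129-27079428 (+), that of Mmp3 at chr9:7445572-7445871 (+) and that of Adamts1 at chr16:85803064-85803363 (-).
Timp1: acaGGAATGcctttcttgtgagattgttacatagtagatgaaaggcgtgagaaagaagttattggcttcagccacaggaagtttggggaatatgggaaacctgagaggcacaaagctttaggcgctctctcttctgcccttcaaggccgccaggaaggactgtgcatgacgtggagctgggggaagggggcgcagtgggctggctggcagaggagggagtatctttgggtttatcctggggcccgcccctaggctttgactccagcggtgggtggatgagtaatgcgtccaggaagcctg
Adamtsl2: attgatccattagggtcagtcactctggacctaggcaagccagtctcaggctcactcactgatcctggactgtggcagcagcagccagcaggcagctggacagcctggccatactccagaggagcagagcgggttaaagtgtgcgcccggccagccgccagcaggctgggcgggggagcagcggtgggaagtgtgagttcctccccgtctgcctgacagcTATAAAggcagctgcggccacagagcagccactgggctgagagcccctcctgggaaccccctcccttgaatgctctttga
Mmp3: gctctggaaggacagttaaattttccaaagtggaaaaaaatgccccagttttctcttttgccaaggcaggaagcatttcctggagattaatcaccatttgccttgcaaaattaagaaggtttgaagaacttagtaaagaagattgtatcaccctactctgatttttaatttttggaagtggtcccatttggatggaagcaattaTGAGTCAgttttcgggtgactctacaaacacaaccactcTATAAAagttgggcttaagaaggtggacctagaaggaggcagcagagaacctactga
Adamts1: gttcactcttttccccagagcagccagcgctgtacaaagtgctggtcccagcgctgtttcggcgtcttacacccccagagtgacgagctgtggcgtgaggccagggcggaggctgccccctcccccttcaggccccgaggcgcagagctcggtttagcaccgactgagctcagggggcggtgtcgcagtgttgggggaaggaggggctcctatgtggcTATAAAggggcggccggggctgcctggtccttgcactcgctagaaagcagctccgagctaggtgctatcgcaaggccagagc
The RefSeq table held a promoter for 36 of the 51 genes. The AP-1 letters occurred in 8 of these 36, namely Mmp1a, Mmp1b, Mmp3, Mmp7, Mmp10, Mmp12, Mmp13 and Mmp20, and in 7.81% of all 32851 promoters in the table. All 8 lie on chromosome 9, and in Mmp3 the match TGAGTCA starts at -46, with a TATAAA at -7. TATAAA was found in 12 of the 36 and in 13.6% of all promoters, with the match at -30 in Adamtsl2 and at -32 in Adamts1. The TEAD letters occurred in Timp1, at -247, and in Adamts13, against 14.7% of all promoters, and the RUNX letters in 6 of the 36, against 16.8%. A match is a run of letters and not a site in use, and neither factor binding nor promoter activity was measured.

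The fibroblast-like class held different clusters in different libraries. Activated fibroblasts, a cluster led by Postn, made up 67.4 and 49.0% of fibroblast-like nuclei in the running infarct and sedentary infarct libraries, against 3.86 and 3.99% in the running and sedentary libraries. Resting interstitial fibroblasts made up 25.1 and 44.2% in the running infarct and sedentary infarct libraries, and 76.5 and 78.5% in the running and sedentary libraries. Adventitial fibroblasts, led by Gfpt2 and Pi16, made up 4.88 and 5.22% in the infarct libraries of running and sedentary mice, and 18.3 and 16.5% in the running and sedentary libraries. Members of the 4 families were left out of the genes used for clustering. Levels by cluster are a description of clusters made from the same nuclei.

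Adamts6 was higher in activated than in resting nuclei of all 4 libraries. It had 493 and 478 CPM in activated nuclei of the running infarct and sedentary infarct libraries, and 644 and 442 CPM in those of the running and sedentary libraries, where the cluster held only 59 and 57 nuclei. In resting nuclei it had 203 and 196 CPM in the running infarct and sedentary infarct libraries, against 130 and 104 CPM in the running and sedentary libraries. Within resting nuclei the ratio was 1.56-fold [1.31 to 1.86] for running infarct over running and 1.89-fold [1.63 to 2.19] for sedentary infarct over sedentary, smaller than over the whole class. Activated nuclei exceeded resting nuclei of the same library by 2.43-fold [2.07 to 2.87] in running infarct and 2.44-fold [2.15 to 2.76] in sedentary infarct.

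Adamts16 and Adamts17 were found mainly in activated nuclei. For Adamts16, activated nuclei had 66 and 49 UMIs and resting nuclei 0 and 2 UMIs in the running infarct and sedentary infarct libraries. Adamts17 had 40.0 and 52.1 CPM in activated nuclei and 14.5 and 9.54 CPM in resting nuclei of the running infarct and sedentary infarct libraries. Without the activated cluster its log2 ratios over the class were 2.10 for running infarct over running and 1.49 for sedentary infarct over sedentary. In activated nuclei of the running and sedentary libraries it had 2 and 0 UMIs. Timp1 was likewise higher in activated than in resting nuclei, by 5.49-fold [2.05 to 20.7] in running infarct and 2.31-fold [1.23 to 4.67] in sedentary infarct, and its log2 ratio of running infarct over running was 1.00 without the activated cluster.

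For Adamtsl2 the order of activated and resting nuclei differed between libraries. In resting nuclei it had 187 and 120 CPM in the running infarct and sedentary infarct libraries, against 39.8 and 55.5 CPM in the running and sedentary libraries. That is 4.71-fold [3.76 to 5.88] for running infarct over running and 2.16-fold [1.77 to 2.63] for sedentary infarct over sedentary, against 3.79-fold and 2.47-fold over the whole class. Activated nuclei had 140 and 151 CPM in the running infarct and sedentary infarct libraries, against 89.0 and 110 CPM in the running and sedentary libraries. Activated nuclei were at 0.746-fold [0.617 to 0.906] of resting nuclei in running infarct and 1.26-fold [1.06 to 1.5] in sedentary infarct, against 2.24-fold [1.42 to 3.39] in running and 1.99-fold [1.29 to 2.96] in sedentary. Adamts3 had 107 and 78.1 CPM in resting nuclei of the running infarct and sedentary infarct libraries, against 48.2 and 52.4 CPM in those of the running and sedentary libraries. In activated nuclei it had 77.7 and 65.3 CPM in the running infarct and sedentary infarct libraries, against 41.1 and 7.89 CPM in the running and sedentary libraries, the last 2 from 12 and 2 UMIs.

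**Figure D4:**
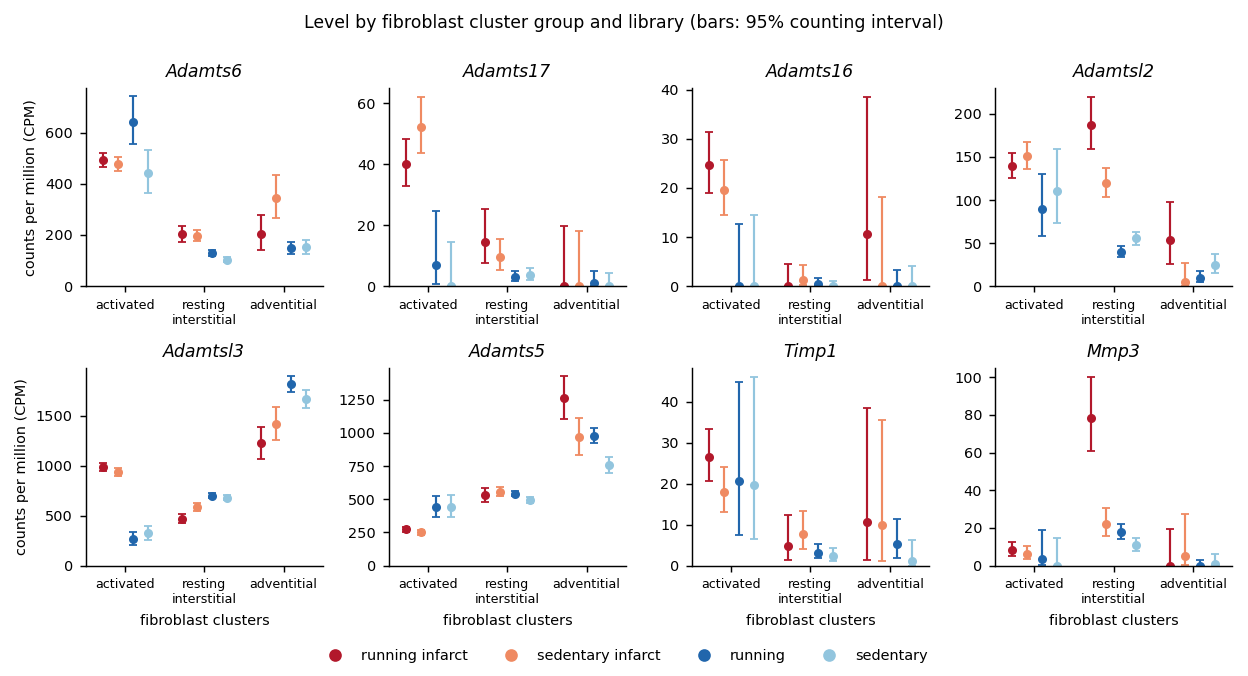
CPM (y axes, from 0) of 8 genes by fibroblast cluster group (x axis) and library (colour), with 95% counting intervals, which are wide for activated nuclei of the uninjured libraries and for adventitial nuclei of the infarct libraries. Adamts6 is highest in activated nuclei of all 4 libraries, Adamtsl2 is raised in resting nuclei of both infarct libraries, and Adamts5 is level across libraries in resting nuclei.

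Adamts5 showed the opposite arrangement. It was level in resting nuclei, at 530 and 557 CPM in the running infarct and sedentary infarct libraries and 543 and 497 CPM in the running and sedentary libraries. In adventitial nuclei it had 1261 and 967 CPM in the running infarct and sedentary infarct libraries, against 980 and 758 CPM in the running and sedentary libraries, which is 1.29-fold [1.11 to 1.48] higher in the running pair and 1.28-fold [1.08 to 1.5] higher in the sedentary pair. Activated nuclei had 274 and 251 CPM in the running infarct and sedentary infarct libraries, against 442 and 446 CPM in the running and sedentary libraries. Within this cluster Adamts5 was 1.61-fold [1.33 to 1.94] lower in the running pair and 1.77-fold [1.44 to 2.17] lower in the sedentary pair. In the infarct libraries activated nuclei were 1.93-fold [1.71 to 2.18] and 2.22-fold [2.00 to 2.46] below resting nuclei, in running infarct and in sedentary infarct. Without the activated cluster the log2 ratio of running infarct over running was -0.04, and that of sedentary infarct over sedentary was 0.10, so the class level was not lower in the remaining clusters combined.

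Adamtsl3, level over the class, was not level within clusters. In activated nuclei it had 986 and 934 CPM in the running infarct and sedentary infarct libraries, against 267 and 323 CPM in the running and sedentary libraries, at 3.69-fold [2.95 to 4.69] in the running pair and 2.89-fold [2.32 to 3.65] in the sedentary pair. In resting nuclei it was lower in the infarct libraries, at 471 and 585 CPM in running infarct and sedentary infarct, against 699 and 680 CPM in running and sedentary. Adamts1, in contrast, was lower within resting nuclei too, by 2.20-fold [1.32 to 3.93] in running infarct over running and 2.06-fold [1.45 to 3.01] in sedentary infarct over sedentary. Mmp3 was mostly in resting nuclei, with 65 of its UMIs there in 8 nuclei of the running infarct library.

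In vascular endothelial-like nuclei, Adamts6, Adamts9 and Adamtsl1 were called higher and Adamts1 and Timp4 lower in both infarct comparisons. Of 14 genes measured in sedentary infarct over sedentary, 3 were at least 1.5-fold higher and 3 lower, where 5.48 and 7.59% of all genes were. Of 15 measured in running infarct over running, 6 were higher and 3 lower, where 5.83 and 9.62% of all genes were. All 3 genes called higher in the sedentary pair (Adamts6, Adamts9 and Adamtsl1) were among the 6 called higher in the running pair. The matching overlap over all genes of this class was not computed.

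Adamts9 had 934 and 621 CPM in vascular endothelial-like nuclei of the running infarct and sedentary infarct libraries, against 350 and 389 CPM in those of the running and sedentary libraries. Running infarct was 2.67-fold [2.43 to 2.93] above running. UMIs were found in 62.1 and 56.2% of nuclei of the running infarct and sedentary infarct libraries, and in 40.9 and 37.9% of nuclei of the running and sedentary libraries, with median depths of 2457, 2945, 2958 and 2710.5 UMIs. The fibroblast-like level of Adamts9 was 46.2 to 74.6 CPM, well under these values.

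Adamtsl1, a secreted matrix glycoprotein also called punctin, had 381 and 347 CPM in vascular endothelial-like nuclei of the running infarct and sedentary infarct libraries, against 152 and 73.2 CPM in those of the running and sedentary libraries. It was 2.50-fold [2.17 to 2.88] higher in running infarct than in running and 4.74-fold [3.86 to 5.85] higher in sedentary infarct than in sedentary. Its top 10 nuclei held 35.0 and 58.0% of UMIs in running infarct and sedentary infarct, against 30.5 and 33.6% in running and sedentary. In sedentary infarct 1 nucleus held 35 of the 305 UMIs. The leading class of Adamtsl1 was lymphatic endothelial-like, where it had 1515 and 1347 CPM in the infarct libraries of running and sedentary mice, and 1074 and 1191 CPM in the running and sedentary libraries. Summed lymphatic markers in vascular endothelial-like nuclei were 228 and 228 CPM in the running infarct and sedentary infarct libraries, against 345 and 281 CPM in the running and sedentary libraries, and their part in the Adamtsl1 values was not tested. The membrane-type Mmp14 had 54.1 and 54.6 CPM in vascular endothelial-like nuclei of the running infarct and sedentary infarct libraries, against 16.2 and 8.19 CPM in the running and sedentary libraries, at 3.34-fold [2.19 to 5.2] for the running pair. The sedentary pair had 63 UMIs of Mmp14 and was not counted as measured. Adamts6 had 121 and 134 CPM in vascular endothelial-like nuclei of the running infarct and sedentary infarct libraries, against 59.3 and 78.6 CPM in the running and sedentary libraries, at 2.04-fold [1.61 to 2.60] in the running pair. Its level in fibroblast-like nuclei was higher in each library.

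These vascular ratios shifted in the divisions of the nuclei. For Adamtsl1 the log2 ratio with at most 5% mitochondrial UMIs was 2.20 in the running pair and 2.94 in the sedentary pair, where all nuclei gave 1.32 and 2.24. For Mmp14 in the running pair it was 1.07 with at most 5% mitochondrial UMIs and 1.13 at Leiden resolution 2, where all nuclei gave 1.74. For Adamts1 in the running pair it was -2.68 with at most 5% mitochondrial UMIs and -2.19 in Y-positive nuclei, where all nuclei gave -1.54. In the sedentary pair Adamts1 was at -2.22 in Y-positive nuclei, where all nuclei gave -1.36. Timp3 in the running pair was at -2.01 in Y-positive nuclei, where all nuclei gave -1.16.

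Adamts1 was lower in the infarct libraries, with 87.9 and 67.1 CPM in vascular endothelial-like nuclei of running infarct and sedentary infarct, against 255 and 173 CPM in running and sedentary. It was 2.90-fold [2.38 to 3.56] lower in the running pair and 2.57-fold [1.94 to 3.46] lower in the sedentary pair. The class was made of 2 clusters. The smaller had the higher level of Adamts1 in each of the 4 libraries; it was led by Gja5 and Sema3g and held 8.18 and 12.0% of the class in the running infarct and sedentary infarct libraries, against 28.5 and 27.5% in the running and sedentary libraries. In that cluster Adamts1 had 214 and 143 CPM in the running infarct and sedentary infarct libraries, with 41 and 33 nuclei, against 654 and 447 CPM in the running and sedentary libraries, with 201 and 184 nuclei. In the larger cluster it had 76.8 and 58.3 CPM in the running infarct and sedentary infarct libraries, against 75.9 and 65.3 CPM in the running and sedentary libraries. The smaller cluster held 24 and 13 of the Adamts1 UMIs in the running infarct and sedentary infarct libraries, against 413 and 230 in the running and sedentary libraries. The larger held 98 and 46 UMIs in the running infarct and sedentary infarct libraries, against 107 and 86 in the running and sedentary libraries. Adamts9 and Adamtsl1 were higher within the larger cluster, at 953 and 656 CPM for Adamts9 in running infarct and sedentary infarct, against 387 and 401 CPM in running and sedentary. For Adamtsl1 the larger cluster had 414 and 384 CPM in running infarct and sedentary infarct, against 201 and 94.1 CPM in running and sedentary.

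**Figure D5:**
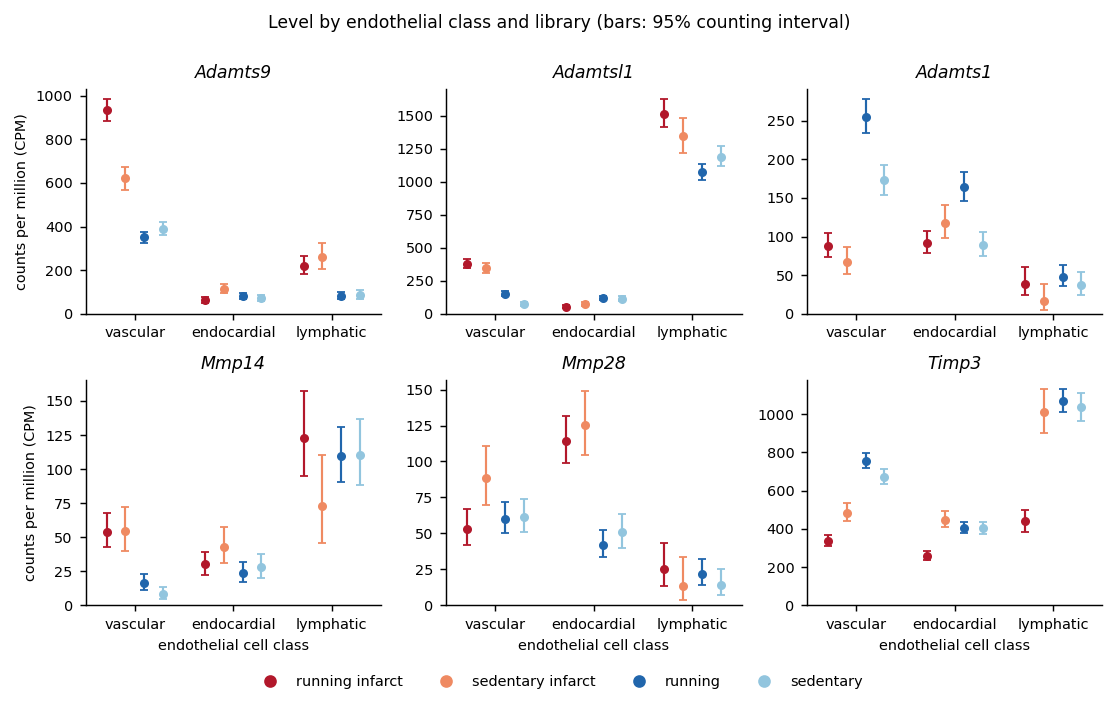
CPM (y axes, from 0) of 6 genes in vascular endothelial-like, endocardial-like and lymphatic endothelial-like nuclei (x axis) by library (colour), with 95% counting intervals. Adamts9 and Adamtsl1 are higher in vascular nuclei of both infarct libraries, Mmp28 in endocardial nuclei of both, and Timp3 is lowest in the running infarct library in all 3 classes.

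Timp3 had its highest class level in lymphatic endothelial-like nuclei. It had 440 and 1012 CPM there in the running infarct and sedentary infarct libraries, against 1070 and 1036 CPM in the running and sedentary libraries. The running infarct library was lowest, 2.43-fold [2.11 to 2.82] below running and 2.30-fold [1.93 to 2.74] below sedentary infarct. Timp3 UMIs were found in 64 and 80.3% of lymphatic nuclei of running infarct and sedentary infarct, against 90.3 and 89.1% in running and sedentary. The top 10 nuclei held 32.9 and 48.9% of UMIs in running infarct and sedentary infarct, against 16.2 and 22.8% in running and sedentary. In sedentary infarct 1 nucleus held 34 of the 305 UMIs. In vascular endothelial-like nuclei Timp3 had 338 and 485 CPM in the running infarct and sedentary infarct libraries, against 756 and 674 CPM in the running and sedentary libraries, with running infarct 2.24-fold [2.02 to 2.49] below running. The larger vascular cluster had 302 and 454 CPM in running infarct and sedentary infarct, against 588 and 549 CPM in running and sedentary. The smaller had 750 and 757 CPM in running infarct and sedentary infarct, against 1131 and 994 CPM in running and sedentary. The part of the mix of clusters in the class ratio was not tested. Timp4, for which vascular endothelial-like nuclei were the leading class in all 4 libraries, had 46.9 and 80.7 CPM in the running infarct and sedentary infarct libraries, against 83.8 and 121 CPM in the running and sedentary libraries. Endocardial-like nuclei had 261 and 449 CPM of Timp3 in the running infarct and sedentary infarct libraries, against 405 and 403 CPM in the running and sedentary libraries, with running infarct 1.72-fold [1.51 to 1.96] below sedentary infarct. With every nucleus weighed the same that log2 ratio was -0.52, under the size limit. In fibroblast-like nuclei the running infarct library was instead the highest for Timp3. In Y-positive nuclei alone the lymphatic log2 ratio of running infarct over sedentary infarct was -0.27, which no longer passed the size limit. It came from only 31 nuclei in running infarct and 11 in sedentary infarct.

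In endocardial-like nuclei Mmp28, the metalloproteinase epilysin, had 114 and 126 CPM in the running infarct and sedentary infarct libraries, against 42.1 and 50.7 CPM in the running and sedentary libraries. It was 2.71-fold [2.09 to 3.55] higher in running infarct than in running and 2.48-fold [1.85 to 3.33] higher in sedentary infarct than in sedentary. It was found in 29.5 and 35.5% of nuclei of the running infarct and sedentary infarct libraries, against 13 and 15.6% in the running and sedentary libraries. Its log2 ratio in the running pair was 1.44, and 2.42 with at most 5% mitochondrial UMIs. Of 11 and 16 genes measured in the sedentary and running pairs, 5 each were called higher, where 5.88 and 5.35% of all genes were, and 1 and 4 were called lower, where 7.74 and 11.8% were. Adamts3 had 56.2 and 60.4 CPM in the running infarct and sedentary infarct libraries, against 15.4 and 4.67 CPM in the running and sedentary libraries, at 3.65-fold [2.40 to 5.69] for the running pair. Adamts10 had 385 and 385 CPM in the running infarct and sedentary infarct libraries, against 245 and 210 CPM in the running and sedentary libraries, and was 1.84-fold [1.58 to 2.14] higher in the sedentary pair, with a log2 ratio of 0.56 in Y-positive nuclei. Adamts2 had 41.2 and 29.2 CPM in the running infarct and sedentary infarct libraries, against 16.4 and 18.7 CPM in the running and sedentary libraries, at 2.5-fold [1.63 to 3.93] in the running pair. Its log2 ratio in that pair was 1.32 over all endocardial-like nuclei and 2.79 with at most 5% mitochondrial UMIs. Summed fibroblast markers in endocardial-like nuclei were at 40.9 and 37.6% of their fibroblast-like level in the running infarct and sedentary infarct libraries, and at 24.1 and 29.1% in the running and sedentary libraries. Their own level in endocardial-like nuclei was 3730 and 3772 CPM in the running infarct and sedentary infarct libraries, against 3071 and 3348 CPM in the running and sedentary libraries. In fibroblast-like nuclei it was 9120 and 10040 CPM in the running infarct and sedentary infarct libraries, against 12735 and 11495 CPM in the running and sedentary libraries. Their part in the values of these genes was not tested. Adamtsl1 went the other way from its vascular direction, with 53.3 and 74.0 CPM in the running infarct and sedentary infarct libraries, against 118 and 113 CPM in the running and sedentary libraries. It was 2.21-fold [1.72 to 2.84] lower in the running pair, where its log2 ratio was -0.04 in Y-positive nuclei and -2.03 with at most 5% mitochondrial UMIs. In running infarct over sedentary infarct, 0 of 16 measured genes were higher and 4 lower (Adamts9, Adamts12, Adamtsl3 and Timp3), where 2.41 and 4.9% of all genes were. In running over sedentary, 3 of 13 were higher (Adamts1, Adamts12 and Adamtsl3) and 0 lower, where 3.24 and 2.31% of all genes were.

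Lymphatic endothelial-like nuclei had 221 and 262 CPM of Adamts9 in the running infarct and sedentary infarct libraries, against 83.3 and 87.4 CPM in the running and sedentary libraries. It was 2.65-fold [2.00 to 3.53] higher in the running pair and 3.0-fold [2.14 to 4.21] higher in the sedentary pair. Its log2 ratio in the running pair was 1.41, and 2.33 with at most 5% mitochondrial UMIs. Timp2 had 147 and 232 CPM in the running infarct and sedentary infarct libraries, against 284 and 301 CPM in the running and sedentary libraries. It was 1.94-fold [1.5 to 2.53] lower in the running pair, and with every nucleus weighed the same its log2 ratio there was -0.56. Of 7 genes measured in the sedentary pair of lymphatic nuclei, 2 were called higher and 1 lower, where 5.54 and 8.4% of all genes were. Of 9 measured in the running pair, 1 was called higher and 2 lower, where 5.35 and 7.78% were. Of 10 measured in running over sedentary none was called in either direction, where 3.16 and 2.47% of all genes were higher and lower. Of 6 measured in running infarct over sedentary infarct, 0 were higher and 2, Timp2 and Timp3, lower, where 3.7 and 3.75% of all genes were. Mesothelial-like nuclei, from the outer lining of the heart, had 310 and 152 CPM of Adamts9 in the running infarct and sedentary infarct libraries, against 119 and 153 CPM in the running and sedentary libraries, with running infarct 2.61-fold [2.00 to 3.45] above running. That log2 ratio was 0.50 in nuclei positive for Y-linked genes and 2.39 in negative nuclei. Running infarct was 2.04-fold [1.62 to 2.58] above sedentary infarct. Timp2, led by this class, had 252 and 307 CPM in the running infarct and sedentary infarct libraries, against 481 and 437 CPM in the running and sedentary libraries, and was 1.91-fold [1.60 to 2.28] lower in the running pair, although with at most 5% mitochondrial UMIs that log2 ratio was -0.27. Adamts6 had 113 and 104 CPM in mesothelial-like nuclei of the running infarct and sedentary infarct libraries, against 28.0 and 76.4 CPM in the running and sedentary libraries. It was 4.04-fold [2.38 to 7.33] higher in the running pair, with a log2 ratio of 3.32 with at most 5% mitochondrial UMIs, 1.41 in nuclei positive for Y-linked genes and 3.26 in negative nuclei, and its fibroblast-like level was 132 to 413 CPM. Adamts10 had 114 and 224 CPM in the running infarct and sedentary infarct libraries, against 136 and 134 CPM in the running and sedentary libraries, and was 1.97-fold [1.52 to 2.55] lower in running infarct than in sedentary infarct.

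In cardiomyocyte-like nuclei Adamtsl5 had 242 and 241 CPM in the running infarct and sedentary infarct libraries, against 187 and 200 CPM in the running and sedentary libraries. Adamts7 had 27.1 and 45 CPM in the running infarct and sedentary infarct libraries, against 48.3 and 45.9 CPM in the running and sedentary libraries. Of the 4 libraries, running infarct was the lowest for Adamts7. Cardiomyocyte-like nuclei had median depths of 4961 and 9854.5 UMIs in the running infarct and sedentary infarct libraries, against 8606 and 8470 UMIs in the running and sedentary libraries, and the part of depth was not tested. Of 17 genes measured in cardiomyocyte-like nuclei, 3 were called higher and 0 lower in sedentary infarct over sedentary, where 5.34 and 5.67% of all genes were. In running infarct over running 1 of 17 was called higher and 1 lower, where 4.95 and 7.57% were. In running over sedentary 4 of 17 (Adamts2, Adamtsl1, Adamtsl3 and Adamtsl4) were called higher and 0 lower, where 3.92 and 2.1% were. Other classes led for these genes. Adamts2, Adamtsl3 and Adamtsl4 averaged 382, 850 and 83.7 CPM in fibroblast-like nuclei, and Adamtsl1 averaged 1282 CPM in lymphatic endothelial-like nuclei. The part of free RNA in their cardiomyocyte-like values was not tested. In running infarct over sedentary infarct 3 of 14 were called higher and 1 lower, where 3.02 and 3.41% were. In macrophage-like nuclei Mmp12 had 48 and 28 UMIs in the running infarct and sedentary infarct libraries, against 1 and 1 UMIs in the running and sedentary libraries, or 25.1 and 31.5 CPM in the infarct libraries of running and sedentary mice, against 1.35 and 1.90 CPM in the running and sedentary libraries. The ratio was 18.6-fold [3.17 to 748] over running and 16.6-fold [2.74 to 679] over sedentary. These UMIs came from 21 nuclei in the running infarct library and 5 in the sedentary infarct library, where 1 nucleus held 19 of the 28. Mmp14 in macrophage-like nuclei had 81 and 21 UMIs in the infarct libraries of running and sedentary mice, against 6 and 6 UMIs in the running and sedentary libraries, and was 5.22-fold [2.30 to 14.6] higher in running infarct than in running. In the same nuclei Adamtsl5 had 37.1 and 44.9 CPM in the running infarct and sedentary infarct libraries, against 85.1 and 64.4 CPM in the running and sedentary libraries. It was 2.30-fold [1.61 to 3.27] lower in the running pair, with a log2 ratio of -1.20 over all nuclei and -2.20 with at most 5% mitochondrial UMIs. Mmp12 and Mmp14 were below 100 UMIs in these comparisons and were picked out after their values had been seen.

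The second question is what running changed in the uninjured heart. In fibroblast-like nuclei of the running library against the sedentary library, 0 of 29 measured genes were at least 1.5-fold higher, where 2.35% of all 10457 genes were, and 1 gene, Mmp24, was lower, where 1.46% were. Mmp24 had 13 CPM in the running library and 22.2 CPM in the sedentary library, a 1.71-fold [1.27 to 2.31] lower level. The median log2 ratio was 0.06 over these genes and -0.00 over all genes. In vascular endothelial-like nuclei 2 of 17 genes were higher and 1 lower, where 3.23 and 2.24% of all genes were. Adamtsl1 was the main one, with 152 CPM in the running library and 73.2 CPM in the sedentary library, 2.08-fold [1.70 to 2.57] higher. Its log2 ratio was 0.34 in Y-negative nuclei and 1.91 in Y-positive nuclei. Mmp15 had 19.6 CPM in the running library and 45.3 CPM in the sedentary library, 2.31-fold [1.57 to 3.46] lower, but its log2 ratio was -0.35 with at most 5% mitochondrial UMIs.

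The third question is whether the infarcted hearts of running and sedentary mice differed. In fibroblast-like nuclei, 4 of 28 measured genes were at least 1.5-fold higher in the running infarct library than in the sedentary infarct library (Adamts9, Adamts16, Mmp3 and Timp1), where 2.28% of all 9602 genes were. None of the 28 was lower by that size, where 2.1% of all genes were. The folds were small and their intervals reached below 1.5-fold: 1.58-fold [1.31 to 1.89] for Adamts9, 1.57-fold [1.08 to 2.30] for Adamts16, 2.03-fold [1.44 to 2.89] for Mmp3 and 1.55-fold [1.09 to 2.21] for Timp1. The running infarct library held more activated nuclei, as given above. Without that cluster the log2 ratio of Timp1 was -0.11, on the other side of even, and that of Adamts9 was 0.15. In Y-negative nuclei the log2 ratio was 0.44 for Mmp3 and 0.23 for Timp1, both under the size limit. Within activated nuclei Adamts9 had 85.9 CPM in the running infarct library and 50.5 CPM in the sedentary infarct library, 1.70-fold [1.36 to 2.13] higher. Of the genes called higher in both infarct comparisons, Adamts6 was at 1.13-fold [1.06 to 1.22] between the infarct libraries, Adamts17 at 0.953-fold [0.742 to 1.22] and Adamtsl2 at 1.12-fold [0.994 to 1.26]. In vascular endothelial-like nuclei 1 of 15 measured genes, Adamts9, was called higher and 2, Mmp28 and Timp4, lower in running infarct over sedentary infarct, where 2.39 and 2.95% of all genes were. In pericyte-like nuclei Adamts12 had 512 CPM in the running infarct library and 232 CPM in the sedentary infarct library, 2.21-fold [1.53 to 3.22] higher, from 64 and 80 nuclei. The share of nuclei with a UMI was 35.9% in running infarct and 37.5% in sedentary infarct, at median depths of 1562 and 2868.5 UMIs, and 1 nucleus held 16 of the 69 UMIs of running infarct. The log2 ratio was 0.90 without the nucleus with most UMIs in each library, 2.68 in nuclei positive for Y-linked genes and 0.66 in negative nuclei. Positive pericyte-like nuclei numbered only 9 in running infarct and 11 in sedentary infarct. Timp3 in pericyte-like nuclei was 2.74-fold [1.90 to 4.00] higher in sedentary infarct, at 420 CPM, than in sedentary, at 154 CPM. Its log2 ratio was 2.52 in nuclei positive for Y-linked genes, from 11 and 30 nuclei, and 0.76 in negative nuclei.

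Other genes of matrix turnover were described from lists, in fibroblast-like nuclei, where the shares of all genes called are those given above. The list of substrates had the widest differences. Of 13 measured substrates, 8 were at least 1.5-fold higher and 1 lower in running infarct over running, with a median log2 ratio of 1.46, and 6 were higher and 1 lower in sedentary infarct over sedentary, with a median of 0.57. Fn1, encoding fibronectin, was 8.24-fold [7.46 to 9.12] higher in the running pair and 7.86-fold [6.96 to 8.91] higher in the sedentary pair. Comp, which Adamts7 and Adamts12 cleave, was 11.7-fold [9.78 to 14.0] higher in the running pair and 12.5-fold [9.76 to 16.4] higher in the sedentary pair, and it is also a leading gene of the activated cluster. Eln, encoding elastin, was 8.96-fold [8.25 to 9.74] higher in the running pair and 2.75-fold [2.55 to 2.97] higher in the sedentary pair, and 1.94-fold [1.85 to 2.05] higher in running infarct than in sedentary infarct. It was 1.68-fold [1.52 to 1.85] lower in running, at 114 CPM, than in sedentary, at 191 CPM.

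Among the 4 proprotein convertases, which activate membrane-type MMPs and ADAMTS proteases, 1 was called higher and 1 lower in the running pair, and 0 higher and 1 lower in the sedentary pair. Pcsk5 was 1.58-fold [1.44 to 1.73] higher in the running pair, with 259 CPM in running infarct and 164 CPM in running. Pcsk6 was 2.66-fold [2.53 to 2.79] lower in the running pair and 1.79-fold [1.72 to 1.87] lower in the sedentary pair. Of the ADAM relatives, 3 of 9 measured were called higher and 1 lower in the running pair, and 2 of 8 higher and 1 lower in the sedentary pair, with Adam12 at 8.66-fold [6.91 to 10.9] in the running pair and 3.72-fold [2.84 to 4.94] in the sedentary pair. Of 12 other matrix proteases measured, 5 were lower and 0 higher in the running pair, and 4 lower and 1 higher in the sedentary pair. Tll2, a procollagen C-proteinase relative, was 10.1-fold [7.18 to 14.5] lower in the running pair and 3.14-fold [2.53 to 3.93] lower in the sedentary pair. Of 5 membrane regulators and clearance receptors measured, 1, Cd44, was called higher in the running pair and none in the sedentary pair, and none was lower.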

How the data were processed

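The deposited files are matrices of whole-number UMI counts per gene and barcode, 1 per library, made by the authors with Cell Ranger 7.1 and the GRCm39 build, per the file headers and the submitters' processing notes. Nuclei came from frozen ventricles, were stained with Hoechst and sorted, and went into 3′-end libraries, per the labels. Whether counting used strand is not given in the sources used here, and in the GENCODE vM21 annotation Timp1, Timp3 and Timp4 overlap Syn1, Syn3 and Syn2 on the opposite strand, while Adamtsl1 shares its strand with Sh3gl2.

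From these counts, barcodes were kept when they had 300 genes or more and no more than 20% of UMIs from mitochondrial genes. Automatic Scrublet calls found 0 doublets, so the highest-scoring barcodes were removed as a percentage that grew with the number of barcodes (82 to 301 per library). Nuclei were scaled to 10000 UMIs and clustered with scanpy 1.11.5 and igraph 0.11.9 (Python 3.11.15), using 3000 variable genes less 17 genes of the families described, 40 principal components, 15 neighbours and Leiden resolution 1. Clusters were named from 159 markers of 17 cell types, or left unnamed. Counts were summed by class and library, and ratios with 95% conditional binomial intervals were computed with scipy 1.17.1, a step checked on simulated counts. With 1 library per group no test was made. Alternatives changed the filters, doublets, clustering, scaling, UMI minimum, weighting, Y-linked status and clusters included.

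Per comparison and class, values are given for up to 10 genes whose interval lies wholly beyond 1.5-fold with at least 100 UMIs, and in fibroblast-like nuclei for a set of 13 genes whatever their values. Genes, lists and rules were chosen with earlier results of these data known. Promoters were matched by symbol to RefSeq. Their build, GRCm38.p6, is not that of the files. A result on another list of matrix turnover genes is not reported here.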

Additional observations from a re-analysis of the deposited data

Results flagged for a closer look

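In 3 cases a gene was higher in running than in sedentary hearts without infarct and lower in running infarct than in sedentary infarct hearts, each by over 1.5-fold. These cases were picked from all genes of the families and all classes measured in both comparisons. The matching count over all genes was not computed, so whether 3 cases are more than other genes would give is not known. With 1 library per group, no such difference between the effects of running was tested. Adamts12 in endocardial-like nuclei had log2 ratios of 0.83 for running over sedentary and -0.83 for running infarct over sedentary infarct, with 29.6, 52.6, 45.2 and 25.4 CPM in the running infarct, sedentary infarct, running and sedentary libraries. Adamtsl3 in endocardial-like nuclei, at 51.4 to 88.6 CPM against 812 to 888 CPM in fibroblast-like nuclei, had log2 ratios of 0.68 and -0.63 in the same comparisons. Timp3 in pericyte-like nuclei had log2 ratios of 1.11 and -0.87, from 64 to 99 nuclei per library, with 230, 420, 333 and 154 CPM in the running infarct, sedentary infarct, running and sedentary libraries.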

How the results depend on the processing

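Of 1252 alternative values of ratios for named genes, 1104 stayed within the counting interval of the main ratio, 146 fell outside it and 2 reversed. Only main ratios of at least 1.5-fold in either direction could count as reversed. Smaller ratios changed sign as well, such as Adamts5 in fibroblast-like nuclei, running infarct over sedentary infarct, from -0.09 to 0.53 in Y-positive nuclei. The reversals were Timp1 in running infarct over sedentary infarct at -0.11 without activated fibroblasts, and Timp4 in running infarct over running at 0.15 in Y-negative nuclei, both log2 in fibroblast-like nuclei, where all nuclei gave 0.63 and -0.88. Shifts of over 1.5-fold came in 58 values, of which 20 were in Y-positive nuclei, 18 at no more than 5% mitochondrial UMIs, 11 without activated fibroblasts, 8 in Y-negative nuclei and 1 at Leiden resolution 2. Counts of genes called in fibroblast-like nuclei are small, and the cause of their changes was not tested. The number of genes measured changed as well and is given with each count. Shares of all genes called were not computed for the alternatives. In running infarct over running, the 9 of 30 higher became 5 of 18 at a minimum of 500 UMIs and 5 of 22 in Y-negative nuclei. The 3 of 30 lower became 5 of 37 at a minimum of 20 UMIs and 1 of 24 at 5% mitochondrial UMIs. They became 1 of 18 at a minimum of 500 UMIs, 1 of 22 in Y-positive nuclei and 1 of 22 in Y-negative nuclei. In running infarct over sedentary infarct, the 4 of 28 higher became 2 of 28 with doublets kept and 0 of 17 at 500 UMIs. They became 7 of 28 with every nucleus weighed the same and 2 of 23 in Y-negative nuclei. The 0 of 28 lower became 1 of 37 at 20 UMIs. In running over sedentary, the 0 of 29 higher became 3 of 21 at 5% mitochondrial UMIs and 3 of 22 in Y-positive nuclei. They became 1 of 29 each with at least 800 genes, at resolution 0.5 and with equal weights, and 1 of 36 at 20 UMIs. Its 1 of 29 lower became 2 of 22 in Y-positive nuclei, 0 of 17 at 500 UMIs and 0 of 22 in Y-negative nuclei. In sedentary infarct over sedentary, the 5 of 27 higher became 8 of 37 at 20 UMIs and 3 of 24 without activated fibroblasts. The 2 of 27 lower became 1 of 24 at 5% mitochondrial UMIs, 4 of 37 at 20 UMIs and 0 of 17 at 500 UMIs. An alternative chosen after seeing the data left out, for each gene, class and library, the nucleus with most UMIs. It gave 5 higher and 2 lower of 26 in the sedentary pair, and 7 higher and 4 lower of 28 in the running pair. No paired analysis was possible because each group has 1 library, and for the same reason no replicate could be left out.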
